A study of Trichoderma reesei QM6a with 6 samples.

Results

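The genes hap2, hap3 and hap5 of Trichoderma reesei encode the subunits of the Hap2/3/5 complex, and their transcripts were compared between an ace1 deletion and the strain QM6a. They were taken by locus tag, as TRIREDRAFT_124286 (hap2), TRIREDRAFT_121080 (hap3) and TRIREDRAFT_124301 (hap5), which are 3 of the 9113 genes in the deposited table of the series. The 3 Δace1 libraries came from QM6a with the gene ace1 deleted, and the 3 QM6a libraries from the strain itself, labelled as wildtype. Mycelium of both strains had grown in shake flasks (28 °C, 250 rpm) for 24 h with 1% D-glucose in the medium called MA, and was then washed and kept for 3 h in the same medium with 1% D-mannitol. Poly(A) RNA was sequenced from stranded libraries, whose estimated counts summed to between 5482552 and 6424125 in Δace1, and to between 6072118 and 6938203 in QM6a. How many transformants the Δace1 libraries came from, and whether the replicates were separate cultures, is not given in the sources used here, so p-values measure the spread between these libraries. The targeted gene ace1, which encodes a zinc finger repressor of cellulase genes, had 6, 7 and 14 counts in the Δace1 libraries, against 8432, 7765 and 8001 in the QM6a libraries.

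The Hap2/3/5 complex binds the CCAAT box, a short element found in many eukaryotic promoters, and its mammalian counterpart is NF-Y. Hap3 and Hap5 pair through histone folds, and Hap2 joins this pair and makes the contacts that read the CCAAT letters, so that all subunits are needed for binding. In Trichoderma the complex is known to bind the CCAAT box in the promoter of the cellobiohydrolase gene cel6a. In the yeast Saccharomyces cerevisiae the complex, with Hap4, activates genes of respiration, and in Aspergillus it acts with HapX on genes of iron use.

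The subunit transcripts did not keep their proportion between the strains. Relative to hap5, the hap2 transcript was 0.494 times as abundant in Δace1 as in QM6a. The TPM ratio of hap2 to hap5 averaged 0.231 ± 0.0275 in Δace1 and 0.470 ± 0.0296 in QM6a (SD, n = 3 each), and its log2 change was -1.02 (standard error 0.11). A changed ratio to hap5 was common, since 79.9% of 7768 genes were called in that fit. Of these 7768 genes, 21.7% had a log2 change at least as low as that of hap2. The hap3 and hap5 transcripts stayed closer to each other, with a log2 change of their ratio of -0.28 that depended on single libraries. These ratios are taken within a library and do not depend on how libraries are scaled to each other, whereas the size of the change of each gene alone, and for hap3 its direction, does.

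Levels were read first in TPM, a unit of transcript number relative to all transcripts of a library, which is corrected for transcript length, so that values can be set side by side for different genes. The DNA-contacting subunit gene hap2 had 39.7, 42.9 and 30.9 TPM in the Δace1 libraries, against 37.4, 38.7 and 40.0 TPM in the QM6a libraries. The strains overlapped in this measure, and the lowest value of all 6 libraries was that of Δace1 replicate 3. It rested on 188 counts, for which counting error alone allows 162 to 217 (95% exact Poisson interval; these intervals cover counting error only). The other hap2 counts were 273 and 270 in Δace1 and 343, 308 and 324 in QM6a.

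The histone-fold subunit gene hap3 had 159, 169 and 182 TPM in the Δace1 libraries, against 101, 111 and 103 TPM in the QM6a libraries. All Δace1 values lay above all QM6a values. Its partner gene hap5 had 176, 164 and 149 TPM in the Δace1 libraries, against 80.0, 87.8 and 79.9 TPM in the QM6a libraries. Here too the strains did not overlap, but 87.5% of 7854 genes with a mean of at least 1 TPM were without overlap as well, so the count of 2 of 3 subunits is no result about them.

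**Figure D1:**
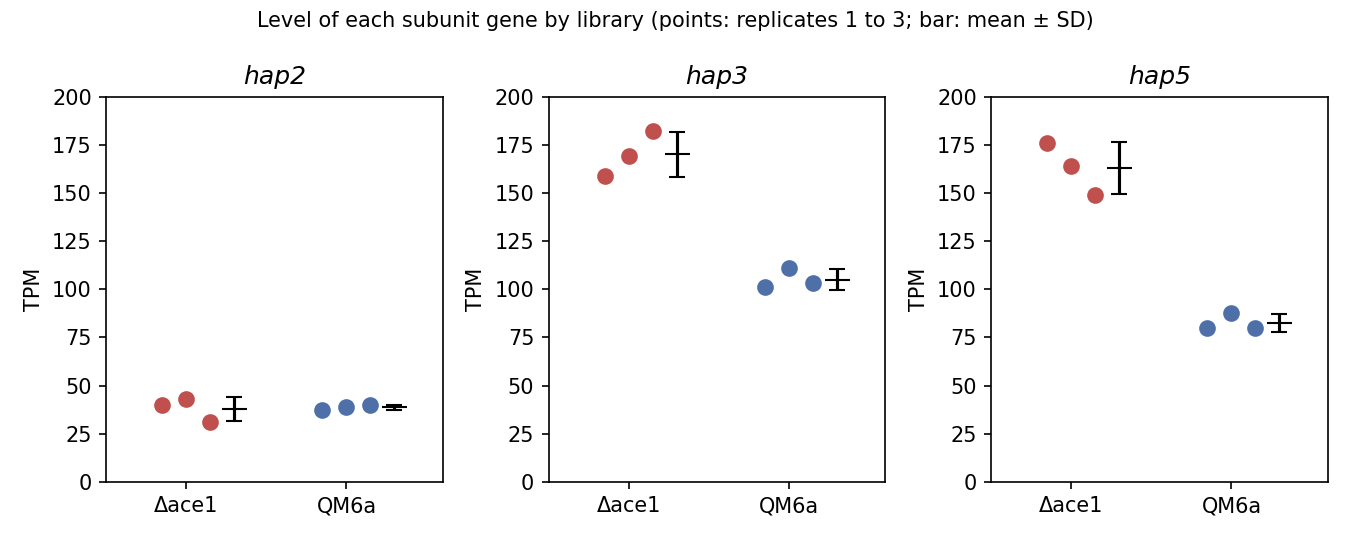
Level of each subunit gene in TPM (vertical axis) in each Δace1 and QM6a library; points are replicates 1 to 3 and the black mark with its bar is the mean with the SD. The hap2 points of the strains overlap at 30.9 to 42.9 TPM, while the hap3 and hap5 points of Δace1 lie above those of QM6a.

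Per length, hap3 and hap5 were therefore the abundant transcripts of the complex and hap2 the scarce one in every library. In Δace1 the mean levels were 170 ± 11.3 TPM for hap3, 163 ± 13.6 TPM for hap5 and 37.8 ± 6.22 TPM for hap2 (SD, n = 3). The order of hap3 and hap5 in Δace1 was not fixed, since hap5 was the higher of the pair in replicate 1 and hap3 in replicates 2 and 3. In QM6a the order was hap3 with 105 ± 5.30 TPM, hap5 with 82.6 ± 4.53 TPM and hap2 with 38.7 ± 1.30 TPM (SD, n = 3), and it was the same in each QM6a library. The TPM of the 3 genes summed to 375, 376 and 361 in the Δace1 libraries, against 218, 237 and 223 in the QM6a libraries. The ratio of the mean sums was 1.64 (two-sided exact permutation p = 0.1, the smallest that 20 splits of 3 against 3 libraries allow). On the scale of TPM the median of all tested genes was itself higher in Δace1, by 0.75 on the log2(TPM + 1) scale.

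A rank within the library does not depend on scaling either. The share of all genes with a lower TPM than hap2 was 58.3%, 61.1% and 52.6% in the Δace1 libraries, against 71.5%, 71.2% and 71.8% in the QM6a libraries. The rank of hap2 was thus lower in each Δace1 library. For hap5 this share was 89.4%, 89.0% and 88.6% in the Δace1 libraries, against 85.3%, 85.9% and 84.9% in the QM6a libraries, a small move upwards in each. For hap3 it was 88.5% to 90.4% in Δace1 and 88.1% to 88.8% in QM6a, with overlap. Ranks of the strains were without overlap for 2 of the 3 subunits, against 80.6% of 7854 genes.

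The proportions were then given as shares of the summed TPM of the subunits. The hap2 share was 10.6%, 11.4% and 8.55% in the Δace1 libraries, against 17.2%, 16.3% and 17.9% in the QM6a libraries. Every Δace1 share of hap2 lay below every QM6a share, and the difference of the means was -6.93 percentage points (10.2 ± 1.48% in Δace1, 17.1 ± 0.798% in QM6a, SD, n = 3 each; two-sided exact permutation p = 0.1, the smallest possible). The hap5 share was 47.0%, 43.7% and 41.2% in the Δace1 libraries, against 36.7%, 37.0% and 35.8% in the QM6a libraries. It was higher in every Δace1 library, by 7.47 percentage points between the means (two-sided exact permutation p = 0.1, the smallest possible). The hap3 share was 42.5%, 44.9% and 50.2% in the Δace1 libraries, against 46.2%, 46.7% and 46.3% in the QM6a libraries. Its Δace1 values lay on both sides of the narrow QM6a range, and the means differed by -0.541 percentage points, less than the SD of 3.99 among the Δace1 libraries (two-sided exact permutation p = 0.800).

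**Figure D2:**
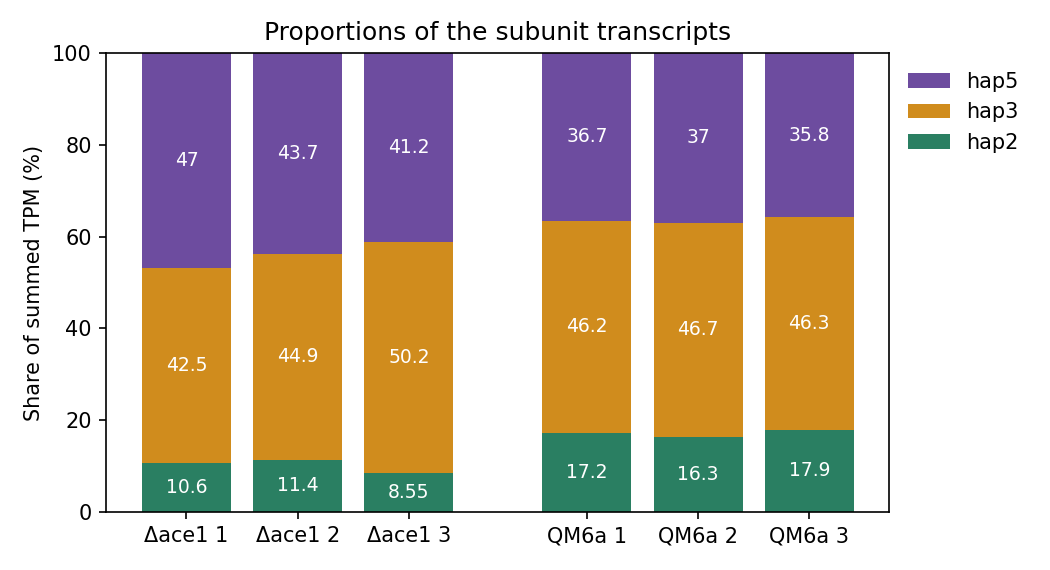
Share of hap2, hap3 and hap5 in their summed TPM (vertical axis, percent) in each Δace1 and QM6a library. The hap2 segment covers 8.55% to 11.4% in Δace1 and 16.3% to 17.9% in QM6a, and the hap5 segment is larger in each Δace1 library.

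Ratios between pairs of subunits carried the same difference with a test over all genes. The TPM ratio of hap2 to hap5 was 0.225, 0.261 and 0.207 in the Δace1 libraries, against 0.468, 0.441 and 0.50 in the QM6a libraries. The strains did not overlap, and the highest upper bound in Δace1 for counting error alone, 0.301, lay below the lowest lower bound in QM6a, 0.382. In edgeR's quasi-likelihood test with each library scaled to its hap5 count, hap2 fell by 1.02 on the log2 scale (standard error 0.11, Benjamini-Hochberg adjusted p = 6.38e-10 over 7768 genes). In that fit 79.9% of all genes were called, and 21.7% had a log2 change at least as low as that of hap2. Since the error of the hap5 count enters the value of every gene there, the fit was repeated with the spread taken from each ratio's own libraries alone, an alternative chosen after seeing the data. The fall of hap2 relative to hap5 passed in that fit as well (edgeR, adjusted p = 0.00197).

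The TPM ratio of hap2 to hap3 was 0.249, 0.255 and 0.170 in the Δace1 libraries, against 0.371, 0.349 and 0.387 in the QM6a libraries. It was lower in each Δace1 library and lowest in replicate 3. With the libraries scaled to hap3, hap2 fell by 0.72 on the log2 scale (edgeR, standard error 0.13, adjusted p = 1.72e-06, and 0.0290 with the spread of the ratio's own libraries), in a fit that called 76.4% of all genes. The log2 ratio had an SD of 0.33 among the Δace1 libraries and 0.074 among the QM6a libraries, while counting error alone would give 0.11 and 0.10. The wide spread in Δace1 came from replicate 3, whose TPM ratio was 0.170, against 0.249 and 0.255 in the other Δace1 libraries. The counting interval of Δace1 replicate 3 (0.144 to 0.201) did not overlap those of replicate 1 (0.216 to 0.288) and replicate 2 (0.220 to 0.294). No further test of this spread was made.

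The TPM ratio of hap3 to hap5, the subunits that pair through histone folds, was 0.904, 1.03 and 1.22 in the Δace1 libraries, against 1.26, 1.26 and 1.29 in the QM6a libraries. All Δace1 ratios were lower, though the highest of them came close to the QM6a values. Relative to hap5, hap3 changed by -0.28 on the log2 scale (edgeR scaled to hap5, standard error 0.11, adjusted p = 0.0169). The call was lost with the spread of the ratio's own libraries (adjusted p = 0.115), without Δace1 replicate 1 (-0.18, adjusted p = 0.113) and without Δace1 replicate 2 (-0.26, adjusted p = 0.0594). In Δace1 the log2 ratio had an SD of 0.22, against 0.08 from counting error, and in QM6a an SD of 0.021, against 0.09. The counting intervals of Δace1 replicate 1 (0.815 to 1.00) and Δace1 replicate 3 (1.09 to 1.36) did not overlap. Of 7853 genes, 80.5% had ratios to hap5 without overlap of the strains, as both hap2 and hap3 had, and 77.2% had such ratios to hap3.

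**Figure D3:**
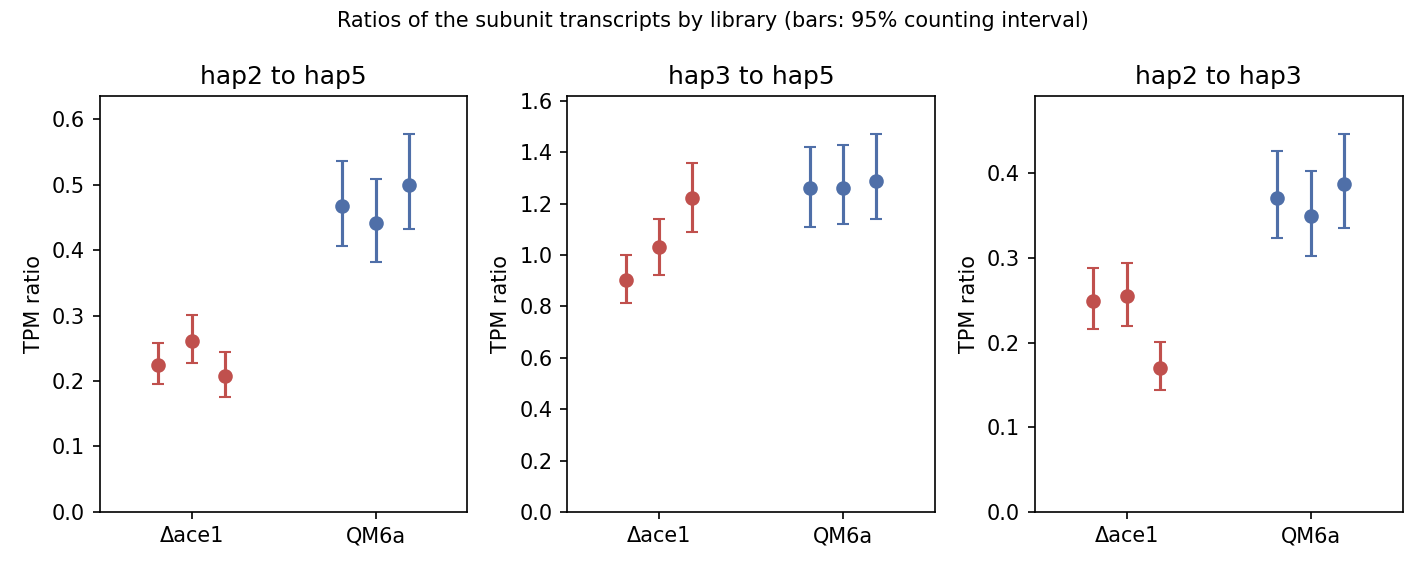
TPM ratios of hap2 to hap5, hap3 to hap5 and hap2 to hap3 (vertical axes, each from 0) in each Δace1 and QM6a library, with 95% counting intervals as bars. The hap2 to hap5 ratio is 0.207 to 0.261 in Δace1 and 0.441 to 0.50 in QM6a, and the hap3 to hap5 ratio spreads from 0.904 to 1.22 in Δace1.

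Each gene was also tested alone, on counts scaled by TMM, a method that takes most genes as level. With TMM 80.8% of the tested genes were called, so that premise is in doubt here. With this scaling hap2 had 35.6, 38.7 and 29.2 CPM (counts relative to the scaled library size) in the Δace1 libraries, against 60.4, 59.2 and 61.5 CPM in the QM6a libraries. It fell by 0.80 on the log2 scale (standard error 0.10, edgeR adjusted p = 1.18e-06). The gene hap5 had 118, 111 and 106 CPM in the Δace1 libraries, against 96.9, 101 and 92.3 CPM in the QM6a libraries, and rose by 0.21 on the log2 scale (standard error 0.07, edgeR adjusted p = 0.0136). That call was lost with DESeq2 (0.19) and without Δace1 replicate 1 or QM6a replicate 3 (0.17 in each). The gene hap3 had 80.5, 86.0 and 97.1 CPM in the Δace1 libraries, against 92.0, 96.0 and 90.0 CPM in the QM6a libraries, with overlap and a log2 change of -0.08 (standard error 0.08) that did not pass (edgeR, adjusted p = 0.379). Of the 3 subunits 1 was called higher, 1 lower and 1 not called, against 41.2% of the 7769 tested genes called higher and 39.5% lower, 80.8% in all. Nearly as common was a lack of overlap in CPM, which 82.2% of the tested genes had. The change of hap2 was of ordinary size, since 48.8% of the tested genes had a larger absolute log2 change. In RNA from whole mycelium, fewer cells that express a gene and less RNA per cell cannot be told apart.

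Scaling moved all 3 genes together and changed the direction given to hap3. When libraries were scaled by their totals, the log2 changes were -0.30 for hap2, 0.42 for hap3 and 0.71 for hap5, and each was called by edgeR (adjusted p = 0.00968, 0.000105 and 4.46e-08). On log2(TPM + 1) with limma the change of hap2 was -0.04 and not called, while hap3 rose by 0.69 and hap5 by 0.97, in a fit that called 86.4% of 7854 genes, 69.5% of them higher and 16.9% lower as shares of all. With upper-quartile scaling hap3 had a change of 0.08 that was not called. The median of all tested genes moved with these scalings, from 0.03 with TMM by 0.16 with upper-quartile scaling, 0.50 with library totals and 0.72 on log2(TPM + 1). Relative to that median hap2 stood at -0.84 with TMM and -0.80 on log2(TPM + 1), hap3 at -0.11 and -0.07, and hap5 at 0.17 and 0.22.

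**Figure D4:**
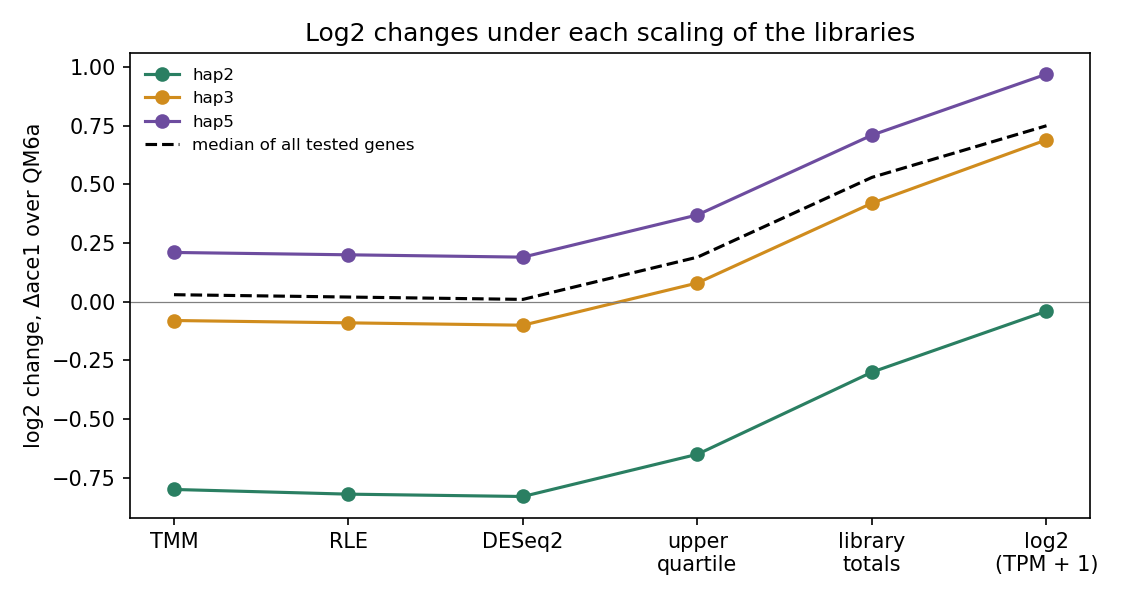
Log2 change of hap2, hap3 and hap5 in Δace1 over QM6a (vertical axis) under 6 scalings or units of the same libraries (horizontal axis), with the median of all tested genes as a dashed line. The lines run nearly parallel, with hap2 below the median throughout and hap3 changing sign between -0.08 with TMM and 0.69 on log2(TPM + 1).

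Log2 changes of subunits within other complexes are given beside those of the Hap2/3/5 genes. The changes of hap2, hap3 and hap5 spanned 1.01 with TMM, from -0.80 to 0.21, with an SD of 0.52 over the 3 genes. For acl1 and acl2, whose products form the enzyme ATP citrate lyase, the log2 changes were -1.44 and -1.59; both fell, and they were 0.14 apart. The 5 histone genes listed by symbol fell with TMM, with log2 changes from -0.90 to -0.59 (SD 0.13). None of them was called on log2(TPM + 1). Over all tested genes 39.5% were called lower and 41.2% higher with TMM. Of 6 proteasome subunit genes 4 rose and none fell, with changes from 0.03 to 0.41 (SD 0.15), and all 6 were called higher on log2(TPM + 1), as were 69.5% of all genes in that fit. All 40 ribosomal protein genes listed by symbol fell, with log2 changes from -3.38 to -1.71. This span of 1.66 was wider than that of the Hap2/3/5 genes, with a smaller SD of 0.28. These spreads are set side by side as a description, over unequal numbers of subunits, and their difference was not tested.

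**Figure D5:**
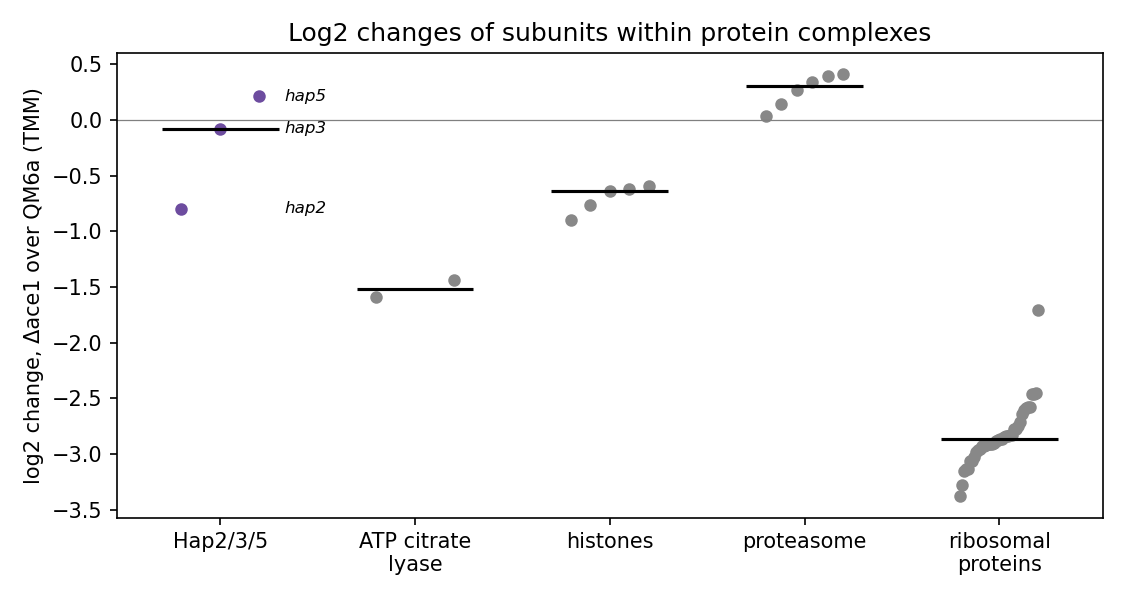
Log2 change in Δace1 over QM6a with TMM (vertical axis) of each subunit gene in 5 protein complexes or families (horizontal axis); a point is a gene and the black line is the median. The Hap2/3/5 genes spread from -0.80 to 0.21, while the ATP citrate lyase genes lie 0.14 apart.

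The promoters on which the complex is described in Trichoderma were nearly silent in these libraries. The cellobiohydrolase gene cel6a (TRIREDRAFT_72567) had 30, 21 and 19 counts in the Δace1 libraries, against 4, 1 and 5 in the QM6a libraries. It passed the count filter only through its Δace1 counts. Its log2 change of 2.38 (standard error 0.41) is therefore given as a description, and its test is no support for a rise. The xylanase gene xyn2 (TRIREDRAFT_123818) had 2, 1 and 1 counts in the Δace1 libraries, against 0, 0 and 1 in the QM6a libraries, so a difference was not detectable at this depth.

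Of 4 listed regulators that act on the same promoters, xyr1 and ace3 rose and cre1 fell. Over all tested genes 41.2% were called higher and 39.5% lower. The remaining regulator was ace1, whose fall was set by its deletion and is no result. With ace1 included, the median log2 change of the list was -0.21 with TMM and 0.54 on log2(TPM + 1). The deletion itself lowers this median, so it cannot be read against the 0.03 and 0.75 of all tested genes. The gene xyr1, which encodes the main activator of these enzymes, had 269 ± 4.74 CPM in Δace1 and 93.0 ± 2.64 CPM in QM6a (SD, n = 3 each), a log2 change of 1.53. The activator gene ace3 (TRIREDRAFT_77513) rose by 0.61, and cre1, which encodes the DNA-binding repressor of carbon catabolite repression, fell by 1.04 on the log2 scale. With libraries scaled to hap5, xyr1 rose by 1.33, ace3 rose by 0.40 and cre1 fell by 1.25 relative to hap5 (edgeR, adjusted p = 2.72e-14, 0.000827 and 1.81e-13).

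Of genes of respiration and the citric acid cycle, the class that the complex controls in yeast, only 4 could be listed by symbol. The reference table gave a symbol to 234 of the 9113 genes, so the rest of this class was not examined. All 4 listed genes fell in Δace1. Their median log2 change was -1.64, against a median of 0.03 and 39.5% called lower over all tested genes. The mitochondrial ATP synthase subunit genes atp1 and atp2 fell, with log2 changes of -1.33 and -1.56. They had 949 ± 51.7 and 2129 ± 31.4 CPM in Δace1, against 2387 ± 119 and 6285 ± 169 CPM in QM6a (SD, n = 3 each). The citrate synthase gene cit1 fell by 2.50 and the isocitrate dehydrogenase gene idh2 fell by 1.72. All 4 were also called lower on log2(TPM + 1), with a median of -0.87. No relation of these genes to the subunits was tested.

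The genes with a pattern most like each subunit were found among 201 genes with a symbol and a mean of at least 10 CPM. Likeness was the Euclidean distance of log2(CPM + 1), centred on each gene's mean over the 6 libraries. Closest to hap2 were pgd1 (distance 0.296), the histone H4 gene hh4.2 (0.304) and ro-4 (0.336), with log2 changes of -0.67, -0.76 and -0.84. Closest to hap3 were pdi1 (0.152) and bip1 (0.180), which encode folding proteins of the endoplasmic reticulum, and the proteasome gene psa7 (0.183). Closest to hap5 were argi (0.035), the kinase gene mkk1 (0.127) and snf1 (0.134), which encodes a kinase known from yeast for its part in the release from glucose repression. The gene argi had 130 ± 9.39 CPM in Δace1 and 111 ± 4.75 CPM in QM6a, a log2 change of 0.22. No gene was on more than 1 of these lists of 3. The distance includes the change between the strains, in which the subunits already differed, so separate lists are no further result.

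The assignment of reads bears on the subunits as follows. In the reference table of assembly v2.0 the gene TRIREDRAFT_82476 spans the whole of hap5, and that table gives no strand. Reads that fit more than one transcript leave fractions in the estimated counts of kallisto. Both genes had whole counts (within 0.001) in all 6 libraries, and hap3 had them as well. The deposited lengths are coding lengths, so reads from outside the coding part of TRIREDRAFT_82476 would leave no fraction. Whole counts therefore cannot show that the hap5 counts are free of such reads. TRIREDRAFT_82476 had 971, 988 and 933 counts in the Δace1 libraries, against 639, 626 and 675 in the QM6a libraries, and its log2 change of 0.19 with TMM was close to the 0.21 of hap5. Whether reads of the pair were told apart by strand is not given in the sources used here. For hap2 the counts were whole in 4 of 6 libraries and otherwise at most 0.480 from a whole number.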

How the data were processed

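Estimated counts and TPM per transcript were deposited for each library, and a normalized signal per gene for the whole series, equal to the count over a factor of its library. The submitters' processing notes name FastQC 0.11.5, kallisto 0.43.1 and DESeq2 1.14.1. Neither the genome build nor the transcript set is given in the sources used here. Deposited lengths, listed as other values per the file headers, are coding lengths (99.1% are multiples of 3). TPM deposited by the authors hold no depth.

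Transcripts and locus tags were joined by their counts in all 6 libraries: 8368 genes matched exactly with a single partner, as did the subunits and ace1, 158 matched the nearest transcript, and 587 shared their counts (at most 11 in total). From 91.8% to 96.1% of the deposited signal values per library were whole (within 0.05) once multiplied back, and edgeR called 6274 genes on them. Symbols came from RefSeq's table of assembly v2.0, which held 9109 of the genes.

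Rounded counts were tested with edgeR 4.0.16 (quasi-likelihood, TMM, filterByExpr, robust) in R 4.3.3, with Benjamini-Hochberg adjusted p below 0.05 over all tested genes. Ratios used the same fit with libraries scaled to 1 subunit. Alternatives were DESeq2 1.42.0, limma 3.58.1, other scalings and filters, a replicate block and each library left out. Scripts were tested on simulated data in which most genes were level, whereas 80.8% of the tested genes were called here with TMM. Replicates differed by more than sampling noise (chi-square per degree of freedom 2.90 to 28.7). The largest values, over all tested genes, were those of Δace1 replicate 3 against Δace1 replicates 1 and 2 (28.7 and 21.4). Δace1 replicates 1 and 2 gave 4.21, and the pairs of QM6a libraries 2.90 to 12.2. The members and lists were chosen with earlier results of these data known. Named genes are the subunits, ace1, the closest genes by the distance given, all members of the promoter and regulator lists, and up to 4 of each other list. No gene had a symbol on the planned lists for iron and haem or for G protein beta and gamma subunits. A planned count of CCAAT letters in promoters was not run. The gene that spans hap5 and the neighbouring genes were named after their values were seen.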

Additional observations from a re-analysis of the deposited data

How the results depend on the processing

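The fall of hap2 relative to hap5 and to hap3 kept its direction and its call under all alternatives that were run. The ratio of hap3 to hap5 lost its call in the fit with its own spread (-0.28), without Δace1 replicate 1 (-0.18) and without Δace1 replicate 2 (-0.26). The call of hap2 alone was lost on log2(TPM + 1) (-0.04) and log2(TPM + 0.1) (-0.05). That of hap5 was lost with DESeq2 (0.19) and without Δace1 replicate 1 or QM6a replicate 3 (0.17 in each). The gene hap3, not called with TMM (-0.08), was called higher on log2(TPM + 1) and log2(TPM + 0.1) (0.69 in both) and with library totals (0.42). The cause of these differences was not tested. Of all called genes, 51.0% were higher in Δace1 with TMM, 58.0% with upper-quartile scaling, 71.8% with library totals and 80.5% on log2(TPM + 1).

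Leaving out each library in turn gave 6039 to 6265 called genes, against 6274. The log2 changes then ranged from -0.89 to -0.70 for hap2, -0.16 to -0.02 for hap3 and 0.17 to 0.25 for hap5. Those of the ratios ranged from -1.11 to -0.95 (hap2 to hap5), -0.40 to -0.18 (hap3 to hap5) and -0.81 to -0.55 (hap2 to hap3). The differences in share ranged from -7.55 to -6.12 percentage points for hap2, -2.73 to 1.16 for hap3 and 5.97 to 8.85 for hap5.

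Samples with the same replicate number did not deviate together (correlations of -0.012, 0.044 and -0.050, against -0.082 to 0.073 for unlike numbers). These values cannot tell whether replicates were set up or processed in matched batches. The main fits used no pairing. With a replicate block 6223 genes were called, the log2 changes were -0.81 (hap2), -0.08 (hap3) and 0.21 (hap5), those of the ratios -1.02, -0.29 and -0.73, and no call on the subunits or their ratios changed. With 188 to 907 counts per subunit and library, counting error alone gives the log2 ratios an SD of 0.08 to 0.11.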

Other observations

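The genes next to the subunits in the order of the reference table had the following values, and their differences from the subunits were not tested. Before hap2 lay TRIREDRAFT_71037, which had 2962, 2440 and 2129 counts in the Δace1 libraries, against 358, 231 and 266 in the QM6a libraries, and rose by 2.75 on the log2 scale (edgeR, adjusted p = 3.86e-11). After hap2 lay TRIREDRAFT_112629, which had 0 counts in each library. Beside hap3, TRIREDRAFT_58734 did not pass the test (log2 change 0.16, edgeR, adjusted p = 0.0727), and TRIREDRAFT_58976 fell by 0.82. After hap5, TRIREDRAFT_124202 had 217, 201 and 209 counts in the Δace1 libraries, against 577, 509 and 541 in the QM6a libraries, and fell by 1.76 on the log2 scale (edgeR, adjusted p = 4.43e-12). The subunit genes hap2, hap3 and hap5 were not neighbours of each other in that order.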
